A study of Mus musculus with 12 samples.

Results

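The 10 genes described here encode heterochromatin protein 1 (HP1) and the enzymes that methylate histone H3 at lysine 9 (H3K9), with their partners, and were taken by gene symbol from the 20409 genes scored in ORFtag screens of mouse embryonic stem (mES) cells. Cbx5, Cbx1 and Cbx3 encode the HP1 proteins α, β and γ. Setdb1, Ehmt1, Ehmt2, Suv39h1 and Suv39h2 encode H3K9 methyltransferases, Atf7ip encodes a binding partner that stabilises SETDB1, and Atf7ip2 is a relative of Atf7ip. In ORFtag, a retrovirus carries a promoter that drives a drug resistance gene and then a tag ending in a splice donor. Where it integrates, the tag can be spliced to the next acceptor downstream, so that the cell makes that gene's protein with the tag at its start. A mixture of cassettes covered all reading frames, and the files do not say which frame an insertion had.

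The cells were diploid mES cells derived from a line that was once haploid, and each screen used 1 clonal reporter line. In the repressor screen the tag was TetR, the reporter was pEF1-BFP-7xTetO-pPGK-Puro-IRES-GFP at an expression-stable site on Chr15, and cells with reduced GFP were sorted. In the activator screen the tag was also TetR, the reporter 7xTetO-pMYLPF-Puro-IRES-GFP was silent at the same site, and cells that had gained GFP were sorted. The third screen looked for regulators that act on mRNA after transcription (post-transcriptional gene regulation, PTGR). Its λN tag binds the boxB hairpins in the mRNA of a randomly integrated Puro-IRES-GFP-10xBoxB reporter, and cells with lowered GFP were sorted, with a last sort after Cre had removed the hairpins. Each screen had 2 sorted and 2 unsorted libraries of insertion sites, 12 in all. The unsorted cells carried the same cassette and reporter and had been selected with G418, and the 6 unsorted libraries together are called the background. Libraries are genomic DNA, so the cell type could not be checked against expressed markers.

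Trimethylated H3K9 is the mark of constitutive heterochromatin, and dimethylated H3K9 marks much of the silent euchromatin. HP1 proteins bind methylated H3K9 through an N-terminal chromodomain, and dimerise and recruit other proteins through a C-terminal chromoshadow domain. In mES cells SETDB1, brought to DNA by KRAB zinc finger proteins through TRIM28, silences retroviral elements, EHMT1 and EHMT2 (GLP and G9a) act as a heterodimer that deposits the dimethyl mark, and SUV39H1 and SUV39H2 methylate pericentromeric repeats.

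Because a fusion protein starts where the tag is spliced, the splice acceptors that the insertions fed are shown first. All coordinates are on mm10 (GRCm38), and each sequence holds the last 20 bases of the intron and the first 10 of the exon, 5′ to 3′ on the strand of the gene. Capitals mark the AG at the end of the intron, which 12 of the 12 acceptors read from the genome carried. The 2 acceptors of Cbx3 and of Cbx5 are shown because the sorted insertions of these genes were split between them, and those of Suv39h1 and Suv39h2 because they were reached in the background but in no repressor sorted cell.
Cbx1 exon 2, chr11:96800751-96800780, plus strand: tatttcctttaattgtttAGcagtgtcacc
Cbx3 exon 2, chr6:51471796-51471825, plus strand: cattttttttcttgcaatAGctcttcaagt
Cbx3 exon 3, chr6:51475211-51475240, plus strand: taatttctcttttgttttAGcaaaaaatgg
Cbx5 exon 2, chr15:103215112-103215141, minus strand: tttttttcctggtgaggcAGggaaggccat
Cbx5 exon 2 of other transcripts, chr15:103213245-103213274, minus strand: ttcatctttccccctttcAGgaacctggtg
Setdb1 exon 2, chr3:95356193-95356222, minus strand: ttcttgttcatcctgcacAGggccaaagca
Atf7ip exon 2, chr6:136559744-136559773, plus strand: ccttttctttttatttaaAGattcagaatg
Ehmt1 exon 2, chr2:24887060-24887089, minus strand: tttttttcttctccctccAGcaggcagttc
Ehmt2 exon 2, chr17:34899167-34899196, plus strand: ttccttgtctcccctcccAGggggaggccc
Suv39h1 exon 2, chrX:8072459-8072488, minus strand: ctttggccttctcattctAGgttgcagtgt
Suv39h2 exon 2, chr2:3472638-3472667, minus strand: attctattttcttattgtAGcctggtgtgt
In GENCODE vM21 the exon behind the acceptor lies upstream of, or holds, the start codon for Cbx1, Cbx3 exon 2, both Cbx5 acceptors, Setdb1 and Atf7ip, so that 100% of the coding sequence follows the tag. At Ehmt1, Ehmt2 and Suv39h1 the first exon holds the first codons, and 99.46%, 98.84% and 98.22% of the coding sequence follows. At Suv39h2 exon 2 the share was 82.95%, since 81.3 of the 477 codons of the longest annotated form lie in exon 1.

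The sorted libraries held 14705 to 60980 insertions within 200 kb of an assigned exon, the unsorted ones 54088 to 233799, and the background 1022126. All 10 genes had background insertions, from 8 at Suv39h2 to 766 at Atf7ip. In the repressor screen 146 positions at the 10 genes were found in both sorted replicates, which is 28.9% of those in replicate 1 and 29.6% of those in replicate 2, against 18.8% and 27.5% over all genes. In the activator and PTGR screens the sorted replicates shared 0 of the 28 and 73 positions at these genes, where over all genes 2.21% and 2.61% (activator) and 0.648% and 0.675% (PTGR) were shared, so that few or none would be shared at those rates. The repressor sorted replicates can therefore not be taken as fully separate samples. The source of the shared positions was not tested, and each repressor call was also made with them counted once. Levels are given as insertions per 10000 of the library. Errors of odds ratios are standard errors (SE) and cover counting error alone, and 1 insertion can stand for many cells.

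In the repressor screen 7 of the 10 genes were called: the 3 HP1 genes, Setdb1, Atf7ip, Ehmt1 and Ehmt2. At least 3 sorted insertions were found for 8 of the 10, and these 8 were tested with a one-sided Fisher's exact test against the background. Of all 2346 genes tested, 8.18% were called (false discovery rate (FDR) below 0.001 and log2 odds ratio of at least 1). The median log2 odds ratio was 4.45 over the 8 tested and -0.39 over all genes tested. Together the 10 genes took 2.66% of the sorted insertions (998 of 37470) and 0.12% of the background (1229 of 1022126). In the 8 tested genes both sorted libraries lay above all 6 unsorted libraries, which was so for 16.6% of all genes tested. The limit of 3 sorted insertions left out Suv39h1 and Suv39h2, which had 0. At the background share 0.843 to 1.69 would fall at Cbx3, Setdb1, Atf7ip2, Ehmt1 and Ehmt2, so these entered by sorted counts above that share. The values over the 8 tested genes, the median among them, are thus descriptions.

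**Figure D1:**
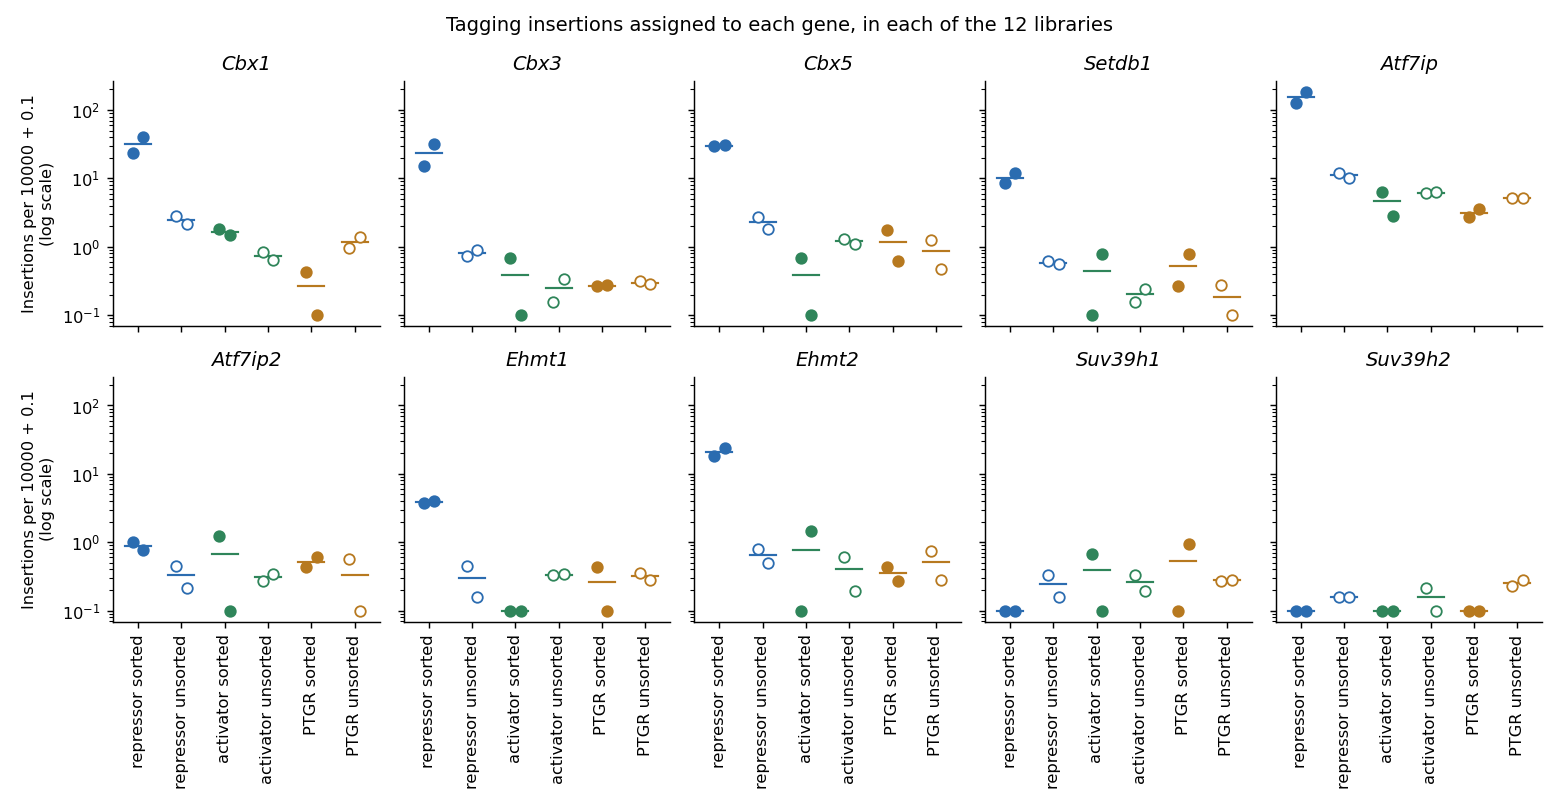
Insertions per 10000 (plus 0.1, log scale) for the 10 genes in every library, with filled points for sorted, open points for unsorted libraries and lines for the mean of 2. The repressor sorted points of Cbx1, Cbx3, Cbx5, Setdb1, Atf7ip, Ehmt1 and Ehmt2 stand above all other points of their panels, and those of Suv39h1 and Suv39h2 lie at 0 insertions.

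All 3 genes for HP1, the reader of the mark, were called. Cbx1 (HP1β, chromosome 11, 96789127 to 96808640) had 23.4 and 39.5 insertions per 10000 in the repressor sorted libraries (52 and 60 insertions), against 0.53 to 2.70 in the 6 unsorted libraries. Cbx3 (HP1γ, chromosome 6, 51470360 to 51483704) had 15.3 and 32.2 per 10000 (34 and 49 insertions), against 0.057 to 0.791. Cbx5 (HP1α, chromosome 15, 103191544 to 103239816) had 29.2 and 30.9 per 10000 (65 and 47 insertions), against 0.37 to 2.64. All 3 genes were thus high in both sorted libraries, with no overlap with the unsorted ones. The mean was 31.4 ± 11.4 per 10000 (SD, n = 2) for Cbx1, 23.7 ± 12 for Cbx3 and 30.1 ± 1.22 for Cbx5, so replicate 2 lay well above replicate 1 for the first 2 genes and close to it for Cbx5. The log2 odds ratio was 4.52 ± 0.18 for Cbx1, 5.94 ± 0.29 for Cbx3 and 4.38 ± 0.18 for Cbx5, and the FDR was 2.05e-91, 4.82e-89 and 2.48e-88 (Fisher's exact test, Benjamini-Hochberg).

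The enrichment of Cbx3 was larger than that of its paralogues, while Cbx1 and Cbx5 were not told apart. In all, 7 pairs of related genes were compared by a two-sided Fisher's exact test on sorted and background insertions, with p adjusted over the pairs. The odds for Cbx3 exceeded those for Cbx5 by 1.56 on the log2 scale (95% interval 0.90 to 2.22, adjusted p = 2.10e-05) and those for Cbx1 by 1.42 (Cbx1 over Cbx3 -1.42, interval -2.09 to -0.76, adjusted p = 7.43e-05). Cbx1 over Cbx5 differed by 0.13 (interval -0.37 to 0.64, adjusted p = 0.763), so that a difference of more than 0.64 in either direction lay outside the interval. Cbx3 was the gene with the fewest background insertions of the 3 (37, against 134 and 147). In sorted cells its level was the lowest of the 3 in replicate 1 and lay between those of Cbx5 and Cbx1 in replicate 2.

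Setdb1, the enzyme that sets the trimethyl mark in the TRIM28 pathway (chromosome 3, 95323525 to 95357202), had 8.53 and 11.8 insertions per 10000 in the repressor sorted libraries (19 and 18 insertions), against 0 to 0.516 in the unsorted ones. Both sorted libraries were far above every unsorted one. Its mean was 10.2 ± 2.34 (SD, n = 2) and its log2 odds ratio 5.34 ± 0.37 (Fisher's exact test, FDR = 3.42e-36). Atf7ip, whose protein keeps SETDB1 nuclear and stable (chromosome 6, 136506167 to 136610862), had 128 and 182 per 10000 (284 and 276 insertions), against 4.99 to 12. Its mean was 155 ± 38.2 (SD, n = 2), and with 560 sorted insertions it ranked 7 by sorted count among the 192 called genes. Its log2 odds ratio was 4.34 ± 0.08, rank 94 of 192. Atf7ip thus had the most insertions of the 10 genes in sorted and unsorted cells alike, and per background insertion Setdb1 was enriched more (log2 ratio of odds 1.02, interval 0.27 to 1.77, two-sided Fisher's exact test, adjusted p = 0.0146). Against the repressor unsorted libraries alone that ratio was 0.58 (adjusted p = 0.342) and the call was lost.

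Atf7ip2 (chromosome 16, 10192712 to 10251478) was tested and not called. It had 0.898 and 0.658 insertions per 10000 in the repressor sorted libraries (2 and 1 insertions), against 0 to 0.470 in the unsorted ones, and a log2 odds ratio of 1.60 ± 0.88 with a 95% interval from -0.12 to 3.32 (Fisher's exact test, FDR = 0.515). Both sorted values lay above all unsorted ones, on 3 insertions in all. A call would have needed 8 insertions, and 0.99 would fall at it at the background share. Atf7ip exceeded Atf7ip2 by 2.72 on the log2 scale (interval 0.99 to 4.45, two-sided Fisher's exact test, adjusted p = 0.000549), and the call was lost (adjusted p = 0.138) against the repressor unsorted libraries alone.

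Both dimethyltransferase genes were called. Ehmt1 (GLP, chromosome 2, 24789928 to 24919614) had 3.59 and 3.95 insertions per 10000 in the repressor sorted libraries (8 and 6 insertions), against 0.0565 to 0.344 in the unsorted ones. Ehmt2 (G9a, chromosome 17, 34898469 to 34914052) had 18.4 and 23.7 per 10000 (41 and 36 insertions), against 0.0963 to 0.689. The means were 3.77 ± 0.25 for Ehmt1 and 21.0 ± 3.72 for Ehmt2 (SD, n = 2), and for neither gene did a sorted library come near the unsorted range. The log2 odds ratio was 4.05 ± 0.49 for Ehmt1 and 5.52 ± 0.27 for Ehmt2, with FDR of 2.23e-10 and 1.96e-77 (Fisher's exact test). Ehmt1 lay below Ehmt2 by 1.46 on the log2 scale (Ehmt1 over Ehmt2 -1.46, interval -2.55 to -0.37, two-sided Fisher's exact test, adjusted p = 0.0184). Against the repressor unsorted libraries alone the difference was -1.02 (adjusted p = 0.342), and without sorted replicate 2 the adjusted p was 0.0775, so this call was lost in both.

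Suv39h1 (chromosome X, 8061171 to 8074760) and Suv39h2 (chromosome 2, 3455815 to 3475031) had 0 insertions in both repressor sorted libraries. Their background counts were 16 and 8, or 0.161 ± 0.0707 and 0.0902 ± 0.0653 per 10000 (SD, n = 6). At the background share 0.587 and 0.293 sorted insertions would fall at them, and a call would have needed 7 and 5. A count of 0 allows up to 0.801 per 10000, which is above both background means, so a level below that could not be told from the background at this depth. For comparison, Setdb1 and Ehmt1 had 25 and 23 background insertions and 37 and 14 sorted ones.

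**Figure D2:**
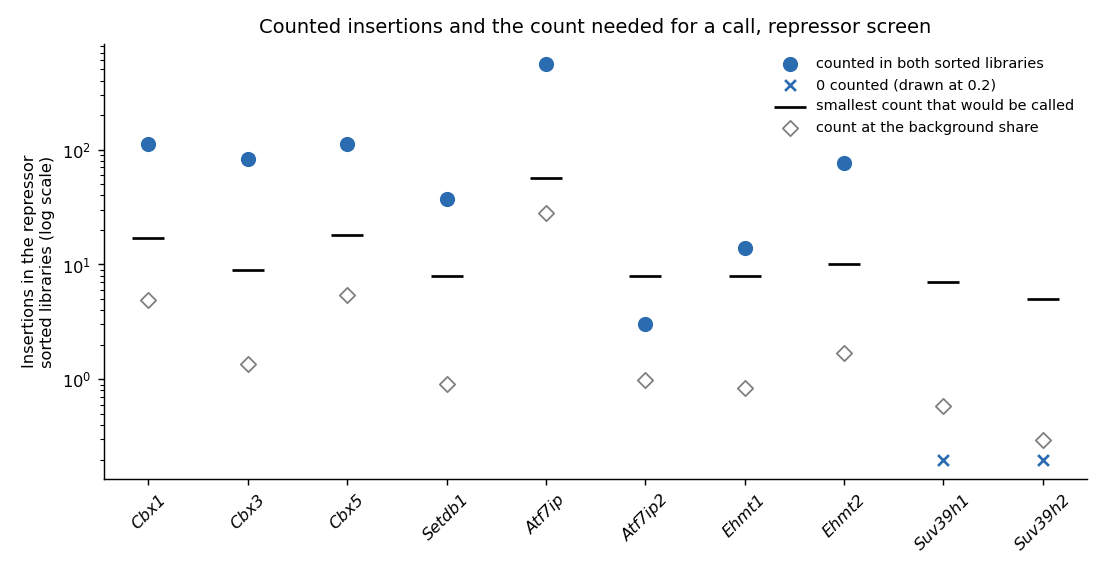
Insertions counted in both repressor sorted libraries (filled points, log scale), the count at the background share (diamonds) and the smallest count that would have been called (black lines) for the 10 genes, with crosses at the bottom for a count of 0. The 7 called genes lie above their lines, Atf7ip2 lies at 3 below a line at 8, and Suv39h1 and Suv39h2 had 0 where 7 and 5 were needed.

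The 7 genes were also called by edgeR, which sets the change against the spread between libraries, and against the unsorted cells of the same screen. The edgeR p-values take the sorted replicates as separate samples, which the shared positions go against, so they may be too small. With edgeR's quasi-likelihood test on 2 sorted and 2 unsorted repressor libraries, the log2 fold change ran from 4.46 for Cbx1 to 6.02 for Ehmt2, and the adjusted p from 5.70e-65 for Cbx5 to 2.24e-11 for Ehmt1. Of the 2779 genes in that fit 7.20% were higher in sorted cells at an adjusted p below 0.05, and the 7 members in it were among them. Atf7ip2, Suv39h1 and Suv39h2 had too few insertions to enter the fit. Its filter on low counts can be passed on the sorted libraries alone. Genes with few unsorted insertions, such as Ehmt1 (8 and 6 sorted, 6 and 1 unsorted), thus entered where sorted levels were high. That all 7 members in the fit passed is therefore partly set by the filter. The 7 genes passed the Fisher test in each sorted replicate alone, with log2 odds ratios from 4.00 (Ehmt1) to 5.40 (Cbx3) in replicate 1 and from 4.13 (Ehmt1) to 6.48 (Cbx3) in replicate 2. All 7 were also called with shared positions counted once. At the HP1 genes, Setdb1 and Atf7ip, both repressor unsorted libraries lay above the other 4 unsorted ones (2.70 and 2.03 per 10000 for Cbx1, against 0.53 to 1.29), and 19.4% of the distinct sorted positions at the 10 genes were also listed in those unsorted libraries, against 14.4% over all genes. Against that background alone the log2 odds ratio ran from 3.66 (Cbx1) to 5.25 (Ehmt2), and 7 genes were called.

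**Figure D3:**
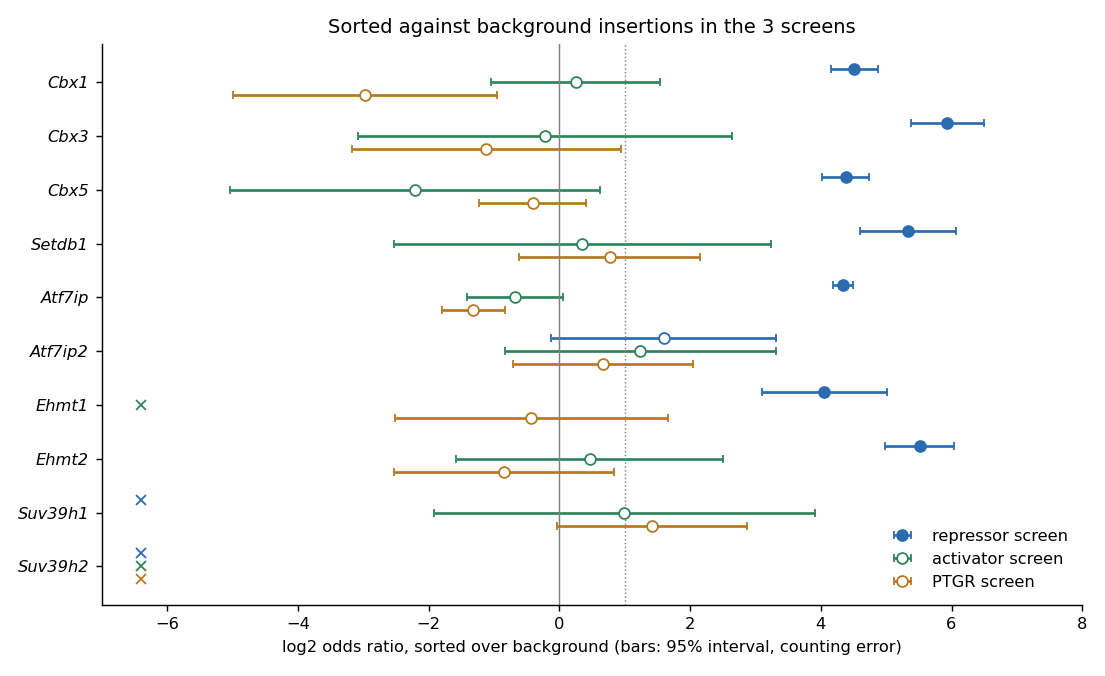
log2 odds ratio of sorted over background insertions with 95% intervals for the 10 genes in the 3 screens (filled: called, open: not called or not tested, crosses at the left: 0 sorted insertions, dotted line: the threshold of 1). Filled points, from 4.05 for Ehmt1 to 5.94 for Cbx3, are all from the repressor screen, and none of the points of the other screens is filled.

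The other 2 screens asked whether the same proteins raised transcription at TetO sites or lowered GFP when bound to the mRNA. In the activator screen 2 of the 10 genes had at least 3 sorted insertions and 0 were called, where 4.64% of all genes tested were called. Cbx1 had 1.72 and 1.36 insertions per 10000 in the activator sorted libraries, within the range of the unsorted ones, and its log2 odds ratio was 0.25 ± 0.66 (interval -1.04 to 1.54). Both values lay above those of the activator unsorted libraries (0.741 and 0.53), and against these alone the log2 odds ratio was 1.31 (Fisher's exact test, adjusted p = 0.665) and the log2 fold change 1.64 (edgeR, adjusted p = 0.46), so that it was not called either way. Atf7ip had 6.32 and 2.72 per 10000, the second value below all unsorted libraries, and a log2 odds ratio of -0.68 ± 0.38 (interval -1.42 to 0.06). At an unadjusted p below 0.05, 0 of the 2 passed the Fisher test. The edgeR fit held the same 2 genes and DESeq2 gave an adjusted p for 4, and both called 0 (4.00% of all genes passed edgeR). Neither Cbx1 nor Atf7ip had both sorted libraries above all 6 unsorted ones, which 11.6% of all genes tested did. The other 8 genes had 0 to 2 sorted insertions each, 8 in sum.

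In the PTGR screen 6 of the 10 genes were tested and 0 called, where 0.666% of all genes tested were called, and 0 of the 6 had an unadjusted p below 0.05 in the Fisher test. The edgeR fit held 1 member, Atf7ip, and DESeq2 gave an adjusted p for 2. Both called 0 (2.24% of all genes passed edgeR), which says nothing of the members they left out. In both sorted libraries 0 of the 6 lay above all 6 unsorted ones, which 7.83% of all genes tested did. Setdb1 had 0.164 and 0.683 insertions per 10000 in the PTGR sorted libraries, Atf7ip2 0.328 and 0.512, and Cbx5 1.64 and 0.512. Each of these overlapped the range of the unsorted libraries. Suv39h1 had 0 insertions in the first PTGR sorted library and 5 in the second (0.854 per 10000), and its log2 odds ratio of 1.42 ± 0.74 (interval -0.03 to 2.87, Fisher's exact test, FDR = 0.481) rested on that library alone. Ehmt2 had 0.328 and 0.171 per 10000 and a log2 odds ratio of -0.84 ± 0.86.

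Atf7ip and Cbx1 had few insertions in PTGR sorted cells. Atf7ip had 2.62 and 3.42 insertions per 10000 (36 insertions, where 89.6 would fall at the background share), both below all 6 unsorted libraries, the lowest of which had 4.99. Its log2 odds ratio was -1.32 ± 0.25 (interval -1.80 to -0.83). Cbx1 had 0.328 and 0 per 10000 (2 insertions against 15.7 at the background share), both below the lowest unsorted value of 0.53, with a log2 odds ratio of -2.97 ± 1.03 (interval -4.98 to -0.96). Reversed insertions, which cannot tag the gene, were also few at Atf7ip in these cells (11 and 14, log2 odds ratio -1.53 ± 0.29), and less clearly so at Cbx1 (4 and 3, -0.76 ± 0.56). The one-sided Fisher test did not test for fewer insertions. How many of all genes lay below all 6 unsorted libraries in both PTGR sorted ones was not counted, so these low levels are descriptions. Against the PTGR unsorted libraries, and with the spread between replicates, the log2 fold change of Atf7ip was -0.64 (edgeR, adjusted p = 0.917), and Cbx1 had too few insertions to be fitted.

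The difference between screens was tested itself, as sorted minus unsorted in the repressor screen less the same in another screen (edgeR, all 12 libraries, adjusted over 2569 genes). Against the activator screen 6 of the 7 called genes had the larger change in the repressor screen, where 5.10% of all genes did. The adjusted p was 1.07e-10 for Atf7ip, 2.95e-07 for Cbx5, 0.00313 for Ehmt2, 0.00423 for Cbx1, 0.0285 for Ehmt1 and 0.0395 for Cbx3. Against the PTGR screen it was the same 6 genes, where 5.53% of all genes did, with adjusted p from 4.09e-14 for Atf7ip to 0.0102 for Ehmt1. Setdb1 did not pass in either (edgeR, adjusted p = 0.363 and 0.144): it had 1 insertion in the activator and 5 in the PTGR sorted libraries, so its repressor call was not shown to differ from the other screens. The 7 genes had been chosen by their insertions in the same repressor sorted libraries, which favours a larger change there. The numbers passing among them are thus a description and no like comparison with the shares of all genes. The calls of a difference are also less firm than the repressor calls. Without activator sorted replicate 1, 2 of the genes passed against the activator screen, without activator unsorted replicate 1, 3 did, and without PTGR unsorted replicate 1, 2 passed against the PTGR screen.

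A cassette in the opposite orientation cannot splice its tag into the gene, so reversed insertions at the same genes measure how often the locus was hit without tagging. In the repressor sorted libraries the 7 called genes had 503 tagging and 11 reversed insertions in replicate 1 (97.9% tagging, 95% Wilson interval 96.2 to 98.8) and 492 and 3 in replicate 2 (99.4%, 98.2 to 99.8). In the activator and PTGR unsorted libraries the tagging share was 48.7% to 52.1%, near an even split, and in the activator sorted libraries 55.2% and 52.9%, on 29 and 17 insertions. In the PTGR sorted libraries it was 66.7% (Wilson interval 53 to 78) in replicate 1 and 50% (37.5 to 62.5) in replicate 2. In the repressor unsorted libraries it was 67.3% and 61.8%, above that of the other 4 unsorted libraries. By gene, the reversed count over both repressor sorted libraries was 9 for Atf7ip, 2 for Cbx5, 1 each for Cbx1, Setdb1, Atf7ip2 and Ehmt1, and 0 for the other 4. Only Atf7ip had enough reversed insertions to be tested. It was not called (log2 odds ratio -1.08 ± 0.48, Fisher's exact test, FDR = 1, and 0 members at an unadjusted p below 0.05), where 5.61% of all genes tested were called for reversed insertions. In the activator screen 2 members were tested for reversed insertions and 0 called (3.14% of all genes), and in the PTGR screen 5 were tested and 0 called (0.500% of all genes), with 0 at an unadjusted p below 0.05 in either. The 7 genes had been chosen by their tagging insertions in these cells, so the share is a description.

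**Figure D4:**
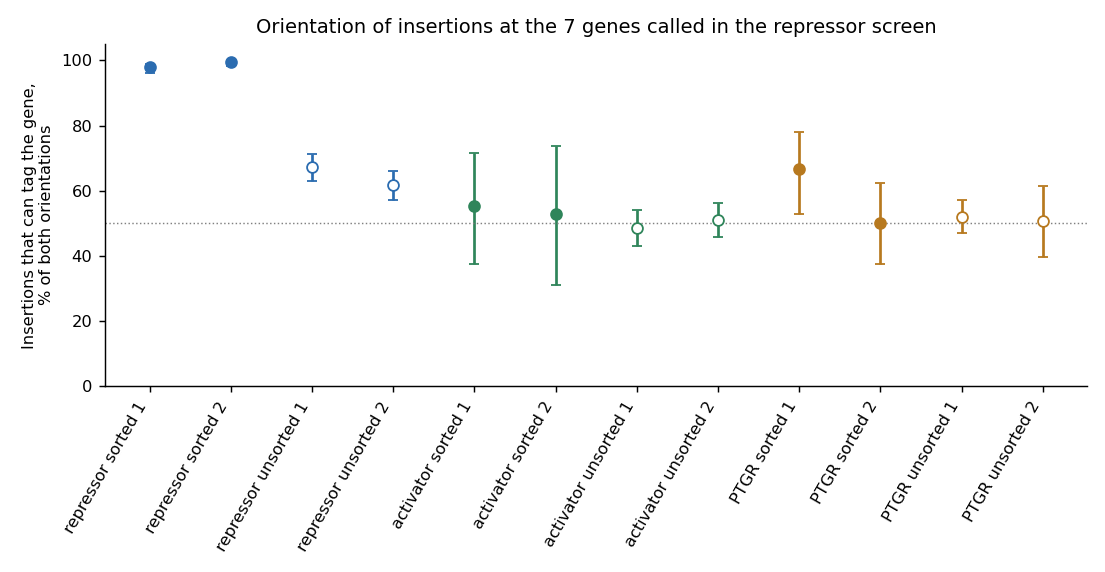
Share of insertions at the 7 called genes that lie in the orientation that can tag the gene, in percent of both orientations, for each library with 95% Wilson intervals (filled: sorted, open: unsorted, dotted line: 50%). The repressor sorted libraries stand at 97.9% and 99.4%, the repressor unsorted ones at 67.3% and 61.8%, and the other 4 unsorted libraries between 48.7% and 52.1%.

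Nearly all insertions lay where the tag would precede almost the whole protein, where the frame allows. In the repressor sorted libraries 97.4% of the 995 insertions at the 7 called genes (Wilson interval 96.2 to 98.2) fed an exon with 90% or more of the coding sequence downstream, and in the background 95.1% of 1178 did (93.7 to 96.2). The log2 odds ratio was 4.60 ± 0.06 for these insertions and 3.61 ± 0.34 for those that would make a shorter protein (26 sorted, 58 background). These sums pool unlike genes, and Atf7ip gave 554 of 969 sorted and 765 of 1120 background insertions of the longer class. The shorter class was lower at Ehmt2 (2.18 against 6.17). At Setdb1 it was at 4.28 (interval 2.63 to 5.94) against 5.60 (4.77 to 6.43), and at Cbx5 at 3.96 (2.71 to 5.22) against 4.42 (4.05 to 4.79). The intervals of these 2 genes overlapped, so no difference was shown at either. The shorter class was close at Cbx3 (5.77 against 5.95, on 4 and 2 insertions). At Atf7ip it was higher (7.35 against 4.32, on 6 and 1 insertions), again with overlapping intervals. Cbx1 and Ehmt1 had 0 sorted insertions in it. At Cbx1 all 112 sorted insertions fed exon 2, and 0 fed later exons, which had 11 of the 134 background insertions. At Ehmt1 all 14 fed exon 2, where 18 of 23 background insertions did.

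At Ehmt2 the sorted insertions were gathered at exon 2, while the background reached far into the gene. Of its sorted insertions 74 of 77 fed exon 2 (96.1%, Wilson interval 89.2 to 98.7), against 28 of 46 in the background (60.9%, 46.5 to 73.6). The other 18 background insertions fed exons 5 to 26, among them 5 at exon 22, which leaves 22.67% of the coding sequence. The catalytic SET domain of EHMT2 lies at the C-terminal end, behind the ankyrin repeats. The log2 odds ratio was 6.17 ± 0.32 for exon 2 and 2.18 ± 0.90 for the later exons, with intervals of 5.55 to 6.80 and 0.42 to 3.95 that do not overlap. This split was made with the values in view and was not tested.

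At Cbx3 the sorted insertions were divided between exon 2 (50 insertions) and exon 3 (29 insertions), and the background in nearly the same ratio (23 and 12). Splicing to exon 3 leaves out the first 8 codons, and the log2 odds ratio was 5.89 ± 0.36 for exon 2 and 6.04 ± 0.50 for exon 3, a difference within their errors. At Cbx5 the acceptor at 103215121 took 75 sorted and 83 background insertions (4.63 ± 0.23) and the one at 103213254 took 29 and 50 (3.98 ± 0.34). Insertions that fed Cbx5 exon 3, which leaves out 45.7 of 191 codons, were also found in sorted cells, 7 against 12 in the background (3.99 ± 0.69). Setdb1 had 32 of 37 sorted insertions at exon 2, and 3 at exon 9, all in replicate 1, which leaves 75.82% of the coding sequence. Atf7ip had 6 sorted insertions, 3 in each replicate, at exons 3 and 7, which leave 57.4% and 46.48%, against 1 background insertion at any exon past the second (log2 odds ratio 7.35, interval 4.30 to 10.41). Of these 6, a pair at exon 3 and the pair at exon 7 lay at the same distance in both replicates, so they are few separate events.

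For Atf7ip2 and Suv39h2 the background itself rarely or never tagged the whole annotated protein. Of the 27 background insertions at Atf7ip2, 1 fed exon 2 and 26 fed exons 7 to 10, 10 of them an acceptor at 10226975 that leaves 9.63% of the coding sequence of the 1 annotated transcript that has it. Its 3 sorted insertions fed exons 7 and 9, so the screen held no sorted insertion that would tag ATF7IP2 from its start. All 8 background insertions at Suv39h2 fed exon 2, which leaves out the first 81.3 codons of the longest form. At Suv39h1, 11 of 16 fed exon 2.

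The distance between insertion and exon differed more among genes than between sorted and background cells. The median distance in the repressor sorted libraries was 63894 bp at Atf7ip, 31233.5 bp at Ehmt1, 13386.5 bp at Cbx1, 2656 bp at Cbx3, 1990 bp at Setdb1, 1961 bp at Cbx5 and 1426 bp at Ehmt2. In the background it was 65630, 30466, 13563, 2625, 1934, 1567 and 1356 bp for the same genes. Most sorted insertions lay before the annotated gene start at Ehmt2 (93.5%), Setdb1 (81.1%), Cbx1 (75.9%) and Atf7ip (67.1%), and most lay in introns at Cbx5 (79.5%), Ehmt1 (64.3%) and Cbx3 (51.8%). Atf7ip had insertions up to 88965 bp from its exon in sorted and 183016 bp in background cells.

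**Figure D5:**
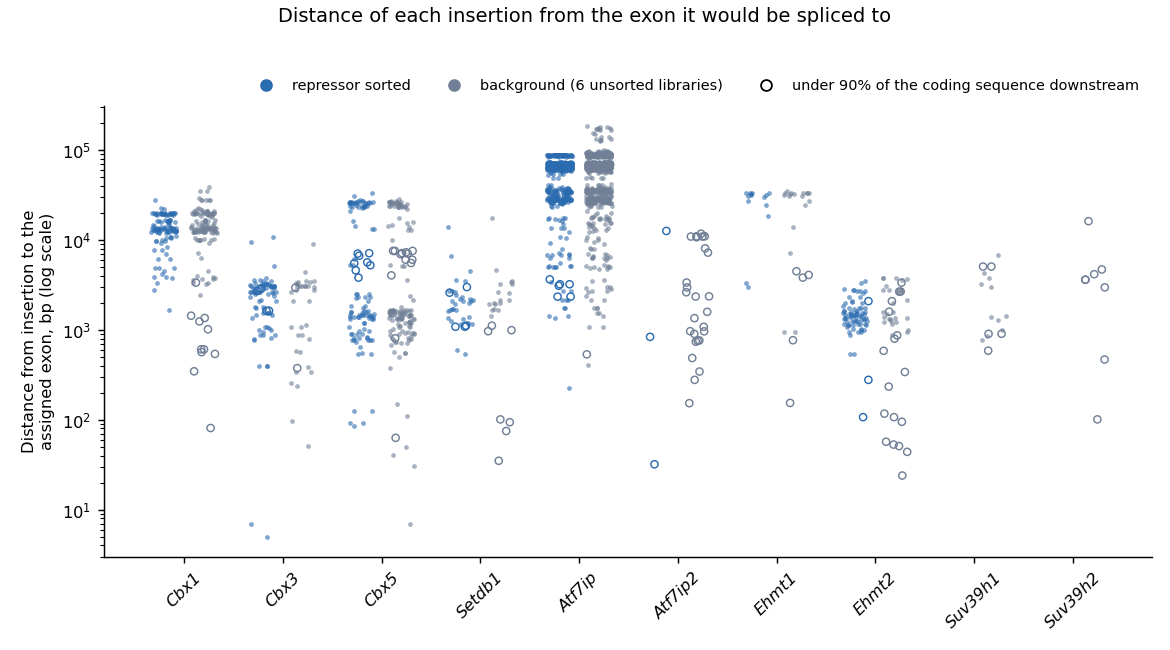
Distance in bp (log scale) from each insertion to its assigned exon, for repressor sorted (blue) and background (grey) insertions at the 10 genes, with open circles where under 90% of the coding sequence lies downstream. At the called genes the bulk of the sorted and background points lies at like distances, open circles at Ehmt2 are 18 in the background and 3 in sorted cells, and Suv39h1 and Suv39h2 have background points only.

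Among 30 other genes of the H3K9 and HP1 pathway, 13 were tested in the repressor screen and 7 called, beside 8.18% of all genes tested. The median log2 odds ratio of the 13 was 3.18. They were the genes with at least 3 sorted insertions. Those with few background insertions, such as Mphosph8 (19) and Tasor (33), entered where sorted counts were high. The number called and the median are thus partly set by this limit and are descriptions. Trim28, the corepressor that binds SETDB1 and HP1, had 331 and 302 sorted insertions (log2 odds ratio 4.70 ± 0.08) and was also called for reversed insertions. Its relative Trim24 had 94 and 68 (3.37 ± 0.13), while Trim33, another relative, had 1 and 1 against 268 in the background and was not tested. Of the HUSH complex, which works with SETDB1, 2 genes were called, Tasor with 9 and 17 insertions (4.43 ± 0.38) and Mphosph8, whose protein has an H3K9-binding chromodomain, with 11 and 4 (4.43 ± 0.50). Its other core gene, Pphln1, had 2 and 0 and was not tested, and the HUSH partner gene Morc2a had 5 and 2 and was not called (0.28 ± 0.56). Trim33, Pphln1 and Morc2a are named here after their values were seen. The chromodomain genes Cdyl, a partner of EHMT2, and Cdyl2 had 54 and 49 (4.92 ± 0.21) and 38 and 11 (3.18 ± 0.24), and Chd4, the NuRD remodeller, had 39 and 21 (4.55 ± 0.25). The other 6 tested were not called, with log2 odds ratios from -1.10 for Prdm16 upwards and the lowest FDR, 0.0608, for the histone chaperone gene Daxx (Fisher's exact test), and 17 were not tested, 11 of them with 0 sorted insertions. In the activator screen 9 were tested and 0 called. In the PTGR screen 21 were tested and 1 called, Trim28 with 187 and 122 insertions (1.97 ± 0.10), again together with its reversed insertions.

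Polycomb chromobox genes encode proteins with a chromodomain like that of HP1 that bind H3K27 methylation and lack the chromoshadow domain. Cbx7 was tested and called in the repressor screen, with 70 and 36 insertions in sorted cells (log2 odds ratio 4.39 ± 0.19). Cbx8 had 1 sorted insertion, and Cbx2 had 0, with 18 and 40 in the background.

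The genes whose levels over the 12 libraries were most like the mean profile of the 7 called genes were Zfp57, Rcor2, Ipo7, Sp1 and Zfp248, with Pearson r of 0.99, 0.99, 0.99, 0.99 and 0.98 on log2(insertions per 10000 + 0.1) among 9732 genes. Their repressor sorted counts ran from 41 and 31 for Zfp248 to 564 and 520 for Zfp57. The same measure for the members, each part of that mean, ran from 0.89 for Setdb1 to 0.98 for Atf7ip, and was 0.45 for Atf7ip2, -0.26 for Suv39h2 and -0.53 for Suv39h1. These are descriptions over 12 libraries that share cells and differ in depth.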

How the data were processed

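The authors trimmed inverse-PCR reads (Trim Galore 0.6.0), aligned them to mm10 with Bowtie2, removed duplicates and poorly mapped reads (SAMtools 1.9), and assigned each insertion to the closest downstream non-first exon of a protein-coding transcript. Each line of the deposited lists gives an insertion and its distance in bp to that exon, and some lists repeat positions. Counts are whole numbers of insertions. Per the file headers, the authors' 3 tables also held counts summed over libraries, log2 odds ratios and p-values. Of these, the summed counts were used for names and as a check: the sorted counts here were equal for 99.96%, 99.99% and 79.28% of genes in the repressor, activator and PTGR tables. For Setdb1, Atf7ip and Suv39h1 the PTGR table listed 6, 37 and 7 where 5, 36 and 5 unique positions were counted. In PTGR sorted replicate 2, 23.858% of lines repeated a position, and in the repressor unsorted libraries 100% did.

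Each position within 200 kb was counted once per library. Sums over the sorted replicates were tested against the sum of the 6 unsorted libraries (Fisher's exact test, one-sided, scipy 1.17.1), with Benjamini-Hochberg adjustment over genes with at least 3 sorted insertions, and genes with FDR below 0.001 and log2 odds ratio of at least 1 were called. edgeR 4.0.16 (TMM, quasi-likelihood, R 4.3.3) and DESeq2 1.42.0 were run on the counts per library. Such p-values measure the spread between the 2 libraries of a group, which the study describes as biological replicates. They may be too small where replicates share positions. edgeR was not rerun with shared positions removed. Exact permutation of 2 against 2 libraries cannot go below p = 0.3333 (two-sided). Gene and exon positions came from GENCODE vM21 on the same build, which held every exon start used here. Intervals and the limit of 3 counts for a count of 0 are at 95% and cover counting error only. Except for the 7 pairs of related genes, tests ran on the whole table after each tool's filter on low counts, and the scripts were tested on simulated data. The members, gene lists and alternatives were chosen with earlier results of these data known. All members, those of the 30 pathway genes and of the Polycomb chromobox genes that were called, and the 5 genes most like the called members (at least 20 insertions) were named. Protein sequences were not used here.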

Additional observations from a re-analysis of the deposited data

Results flagged for a closer look

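The sorted-over-unsorted change at 6 genes differed between screens by the test of the difference itself (edgeR, 12 libraries, log2 differences of fitted values). Repressor minus activator was 2.79 for Cbx1, 4.45 for Cbx3, 5.98 for Cbx5, 4.60 for Atf7ip, 9.24 for Ehmt1 and 4.56 for Ehmt2. Repressor minus PTGR was 6.83 for Cbx1, 5.99 for Cbx3, 4.36 for Cbx5, 5.27 for Atf7ip, 5.36 for Ehmt1 and 7.03 for Ehmt2. The size for Ehmt1 against the activator screen, where both sorted libraries had 0 insertions, depends on the prior count of the fit and is no estimate of a fold. Other sizes rest on 1 or 2 insertions in the other screen and moved when 1 library was left out. Against the activator screen Cbx5 was at 11.02 and Cbx3 at 9.48 without activator sorted replicate 1, and Ehmt2 was at 10.59 without activator sorted replicate 2 and at 3.12 without activator unsorted replicate 1. Against the PTGR screen Cbx1 was at 10.71 without PTGR sorted replicate 1, and Ehmt1 reached 9.26. Cbx1 also differed between the other 2 screens (activator minus PTGR 4.04, edgeR, adjusted p = 0.0467), with 5 activator and 2 PTGR sorted insertions.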

How the results depend on the processing

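In the repressor screen the log2 odds ratios of the 7 called genes kept their direction and call in 146 of 147 alternatives. The exception was Ehmt1 with insertions within 20 kb, 2.74 (Fisher's exact test, adjusted p = 0.0617), where its insertions at about 30 kb drop out. Not all of these alternatives could change a result. An adjusted p limit of 0.05 only loosened the threshold, other minimum counts left each odds ratio as it was, and edgeR and DESeq2 were also read at 0.05. The number of members called was 7 of 10 in the repressor and 0 in the other screens under every alternative except the 20 kb limit, where it was 6 in the repressor screen. By the study's methods, part of the selected cells was kept unsorted and the rest sorted, so sorted and unsorted libraries may form pairs. The labels do not say whether the replicate numbers mark these pairs. With 2 pairs per screen, the deviations of same-numbered libraries correlated at 0.0668, 0.3132 and 0.2164 in the repressor, activator and PTGR screens (517, 540 and 3743 genes). All 3 values were above 0, and the fits were therefore also made with a replicate block. With a replicate block in edgeR, 7 members were called in the repressor, 0 in the activator screen and 0 in the PTGR one, as without it. The activator and PTGR fits held only 2 and 1 members. The block changed no call of a pathway gene (7, 0 and 1). Values near 0 changed sign. In the activator screen Cbx1 was at -0.0205 with every line counted, and Atf7ip at 0.66 within 20 kb. In the PTGR screen Cbx5 was at 0.11 against its own unsorted libraries, 0.42 with DESeq2, 0.50 with the Cochran-Mantel-Haenszel test, and ran from -1.49 to 0.19 when 1 library was left out (0.19 without sorted replicate 2). Cbx1 over Cbx5 was at -0.13 against the repressor unsorted libraries and ran from -0.19 (without sorted replicate 2) to 0.49 when 1 library was left out. At an adjusted p below 0.05, 2 pathway genes were called in the PTGR screen. Against the repressor unsorted libraries 2 of the 5 called pairs passed, both with Cbx3, and leaving out 1 sorted replicate gave 4 to 5. Ehmt1 over Ehmt2 was also lost with shared positions counted once, an alternative chosen after seeing the data (-1.19, adjusted p = 0.0522, two-sided Fisher's exact test). Leaving out 1 library gave 2 to 6 members that differed from the activator screen and 2 to 6 from the PTGR screen, and 6 to 7 past edgeR in the repressor screen, where Ehmt1 had too few insertions for 3 of the 4 fits. It gave 7 repressor, 0 activator and 0 PTGR members, and 6 to 7, 0 and 1 pathway genes. In 31 cases the alternative left too few insertions for a value. Depth limits what can be said of Suv39h1 and Suv39h2, with 16 and 8 background insertions.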
